A study of Sus scrofa with 6 samples.

Results

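10 genes of the stretch-responsive sarcomere and its Z-disc were followed in pig muscle: the leiomodins LMOD2 and LMOD3, the actin-binding signalling protein ABRA, the transcriptional co-regulator IFRD1, the ankyrin repeat proteins ANKRD1 and ANKRD2, the LIM protein CSRP3, the Xin protein XIRP1, and the calsarcins MYOZ1 and MYOZ2. They were listed by symbol, except MYOZ2, which was taken as the gene ENSSSCG00000032838, and they were chosen by their known roles and by the ST and LT levels that earlier work on the same libraries had shown. Of the 10 genes, 8 were found among the 20288 annotated protein-coding genes of the files, and all 8 passed the filter on low values that left 13994 genes. LMOD3 and XIRP1 were not analysed here under those names. Since ST and LT levels had a part in the choice, the differences of these genes are a description, with no test.

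The samples were longissimus thoracis (LT) and semitendinosus (ST) muscles of 3 Min pigs, a native Chinese breed, of wild-type genotype and the same age, with no treatment, compared because the muscles differ in meat quality. Each pig gave 1 LT and 1 ST library. The replicate number is taken here to stand for the pig, which the sample labels do not state. RNA was sequenced after removal of rRNA with a strand-directional kit, and the deposited value is FPKM, the fragments of a transcript scaled by its length and by the mapped fragments of its library. Levels below are FPKM summed over the transcripts of a gene, so they can be compared between genes as far as the transcript models are right. Differences are on the log2(FPKM + 0.1) scale, ST minus LT.

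The Z-disc anchors the thin actin filaments at the ends of each sarcomere, and it is also a site where muscle senses load. Leiomodins start and lengthen actin filaments, ABRA promotes the entry of MRTF cofactors of the factor SRF into the nucleus, and ankyrin repeat and LIM proteins move between the Z-disc or titin and the nucleus when muscle is stretched. Calsarcins tether the phosphatase calcineurin at the Z-disc, with MYOZ1 the form of fast fibres and MYOZ2 that of slow fibres and heart.

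The study designed PCR primers for 4 of these genes, which are shown because they define the amplicons by which ABRA, LMOD2, IFRD1 and MYOZ2 were followed outside the sequencing. They are written 5′ to 3′ in lower case, and their genome positions were not determined here.
MYOZ2 forward: agcaagcatcagccatca
MYOZ2 reverse: ccaagttgttcccatcca
ABRA forward: gtgacattgacagactcctcc
ABRA reverse: ccacctgctctccatcct
LMOD2 forward: aactcctcgcttcgctgtc
LMOD2 reverse: gctcctcctcgctttcctc
IFRD1 forward: aagagtgcgaagacaagg
IFRD1 reverse: cagcaaacaccaaagcaag

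One library stood apart. The slow-fibre list of 7 markers summed to 7313, 4757 and 5738 FPKM in LT replicates 1 to 3 and to 39461, 6506 and 39943 in ST replicates 1 to 3, so ST replicate 2 held 16.4% of the mean of the other ST libraries. The fast-fibre list of 7 markers summed to 52820, 54305 and 40178 in LT and to 10468, 34021 and 3020 in ST. The sum of 10 immediate early genes came to 377 to 533 in LT, to 510 and 498 in ST replicates 1 and 3, and to 1412 in ST replicate 2. ST replicate 2 thus lay near the LT libraries in both fibre-marker sums and above all 5 others in the sum of immediate early genes. The sum of 6 markers of skeletal muscle was between 9970 and 10816 in every library, but single markers in it were less even. ENO3 ranged from 605 FPKM (ST replicate 1) to 3783 (LT replicate 2), with a log2 fold change of -1.50 (limma adjusted p = 0.183). ST replicate 2 held 2512 of it, beside 749 for ST replicate 3. DES went the other way, with a log2 fold change of 0.70 (limma adjusted p = 0.391). The sum of 5 endothelial markers was 49.5 to 73.7 in LT and 118 to 170 in ST, and mitochondrial transcripts made up 2.91 to 4.25% of fragments in LT and 6.15 to 8.48% in ST. The part of these differences in the results below was not tested. In whole muscle, fewer cells of a type and less RNA per cell cannot be told apart.

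Among the 8 genes, 5 had all ST values above all LT values, 1 had all ST values below, and 2 overlapped. Over all 13994 genes, 26.6% did not overlap, with 19.2% higher and 7.42% lower in ST. Of the 8, 7 had a higher mean in ST, and 6 were higher in ST in every pig. The median difference was 1.97, beside 0.17 over all genes. Quantile normalization moved these medians to 1.84 and -0.01. By mean level in ST, which had a part in the choice, every one of the 8 stood at or above the 97.3 percentile of all genes. By mean level in LT the lowest stood at the 82.9 percentile, the MYOZ2 locus. Without ST replicate 2, 6 genes were above and 1 below with 1 overlapping, where 45.4% of all genes did not overlap and 34.1% were above, and the median was 2.16.

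**Figure D1:**
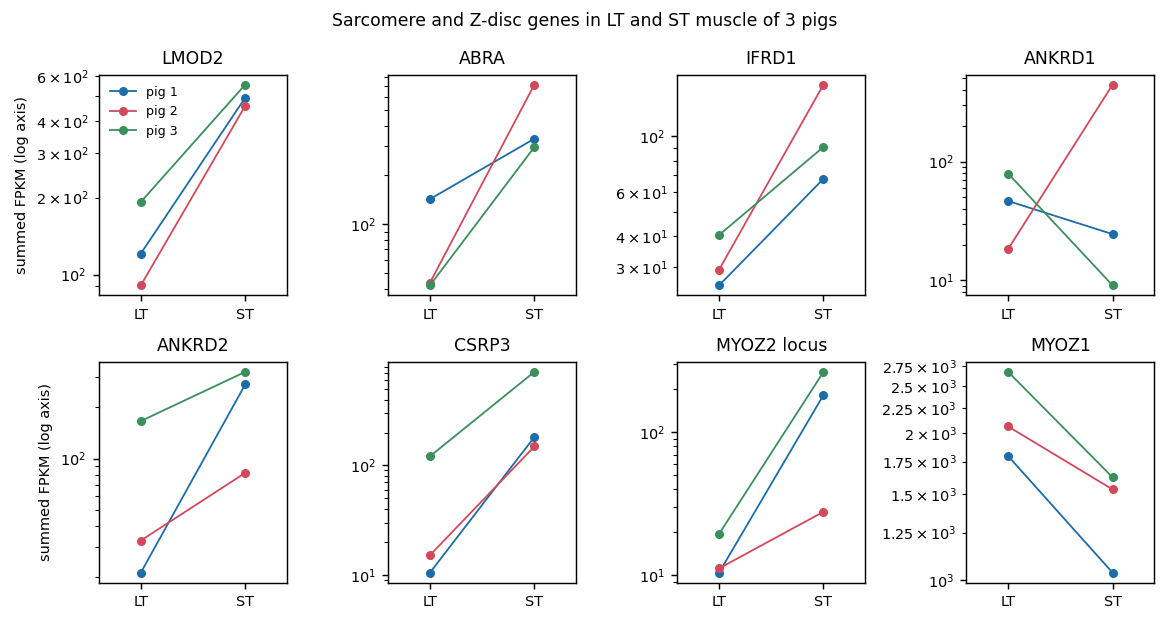
Summed FPKM of 8 sarcomere and Z-disc genes (log axis, a separate range in each panel) in LT and ST, with 1 line per pig. LMOD2 is higher in ST in every pig by a similar step, ANKRD1 is higher in ST in pig 2 alone, and MYOZ1 is lower in ST in every pig.

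LMOD2, which nucleates actin filaments, had the lowest CV of the 8 genes in ST, 9.73%. The gene lies at chr18:23803661-23812481 on the minus strand of the Sscrofa11.1 assembly. The LT libraries held 121, 90.6 and 192 FPKM, and the ST libraries held 493, 458 and 555. All 3 ST libraries were high and close together, with no overlap with LT. The mean was 135 ± 52.2 (SD, n = 3) against 502 ± 48.9 (SD, n = 3), a difference of 1.96 (SE 0.29), with 2.03, 2.34 and 1.53 in pigs 1 to 3. Of its 2 listed transcripts, ENSSSCT00000018078 carried 96.4 to 98.98% of the sum in every library. Relative to TMOD4, a tropomodulin that caps thin filaments in skeletal muscle, LMOD2 stood at ratios of 0.204, 0.134 and 0.274 in LT and 1.98, 1.01 and 2.81 in ST.

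ABRA, also called STARS, links actin to SRF-driven transcription and lies at chr4:30712238-30721193 on the plus strand as a single listed transcript of 2 exons. The LT libraries held 142, 43.6 and 42.1 FPKM, and the ST libraries held 335, 719 and 297. The highest LT library, replicate 1, was below the lowest ST library, and ST replicate 2 held 2.28 times the mean of the other ST libraries. The means were 76.1 ± 57.5 (SD, n = 3) and 450 ± 234 (SD, n = 3), a difference of 2.70 (SE 0.53). Within pigs it was 1.23, 4.04 and 2.82.

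IFRD1, a co-regulator of transcription known from muscle differentiation and regeneration, lies at chr18:33165376-33248297 on the minus strand. The LT libraries held 25.3, 29.2 and 40.3 FPKM, and the ST libraries held 67.6, 161 and 90.7. The groups did not overlap, and ST replicate 2 was again the highest, at 2.04 times the mean of the other ST libraries. The difference was 1.68 (SE 0.33), with means of 31.6 ± 7.75 (SD, n = 3) and 107 ± 48.8 (SD, n = 3). Of 4 listed transcripts, 1 was listed at 0 in every library and ENSSSCT00000074965 held 40.5 to 46.1% of the sum.

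ANKRD1, a stress-induced ankyrin repeat protein also named CARP, lies at chr14:102603777-102612839 on the minus strand. The LT libraries held 46.6, 18.4 and 79.3 FPKM, and the ST libraries held 24.5, 444 and 9.07. ST replicate 2 held 26.5 times the mean of the other ST libraries, which both lay below LT replicates 1 and 3. The means were 48.1 ± 30.5 (SD, n = 3) and 159 ± 247 (SD, n = 3). The difference of 0.18 (SE 1.29) became -1.45 without that library and -0.39 without LT replicate 2, and the pigs gave -0.92, 4.59 and -3.11. In ST replicate 2, ENSSSCT00000049949 carried 91.0% of the sum, within the 80.9 to 91.5% of all libraries.

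ANKRD2, the relative of ANKRD1 that is enriched in slow fibres and also named ARPP, lies at chr14:108944534-108959382 on the plus strand. The LT libraries held 21.3, 32.9 and 166 FPKM, and the ST libraries held 273, 82.3 and 323. LT replicate 3 lay above ST replicate 2, so the muscles overlapped, although ST was higher in each pig, by 3.67, 1.32 and 0.96. The means were 73.4 ± 80.3 (SD, n = 3) and 226 ± 127 (SD, n = 3), a difference of 1.98 (SE 0.80). Relative to ANKRD1, ANKRD2 stood at ratios of 0.458, 1.79 and 2.09 in the LT libraries and of 11.13, 0.185 and 35.6 in ST. ST replicate 2 thus had the lowest ratio of the 6 libraries.

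CSRP3, the muscle LIM protein, a Z-disc and nuclear protein of slow and cardiac muscle, lies at chr2:40215353-40240618 on the plus strand. Levels were 10.4, 15.1 and 121 FPKM in the LT libraries, against 182, 149 and 719 in ST. Pig 3 had the highest level of each muscle, its LT library holding 9.51 times the mean of the other LT libraries. The groups did not overlap, with 48.9 ± 62.7 (SD, n = 3) against 350 ± 320 (SD, n = 3), a difference of 3.33 (SE 0.95), which lay between 2.62 and 4.41 with 1 library left out. Within pigs it was 4.11, 3.30 and 2.57.

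The MYOZ2 locus, at chr8:104574430-104609328 on the minus strand, has no symbol in the files and spans 99.9% of MYOZ2 in RefSeq. Its model also reaches beyond the RefSeq span, which begins at 104578942, and what this does to its FPKM beside other genes was not tested. At 10.4, 11.2 and 19.4 FPKM, LT was low throughout, and the ST libraries held 183, 27.8 and 266. The muscles did not overlap, but ST replicate 2 held 0.124 of the mean of the other ST libraries. The means were 13.7 ± 5.01 (SD, n = 3) and 159 ± 121 (SD, n = 3), a difference of 3.07 (SE 0.76), and of 4.06 without that library. Within pigs it was 4.12, 1.31 and 3.77.

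MYOZ1 was the gene with the highest level in each muscle and the only one of the 8 with a lower mean in ST. It lies at chr14:76444540-76452799 on the minus strand, with 1796, 2066 and 2675 FPKM in LT, and 1034, 1534 and 1624 in the ST libraries. The groups did not overlap, with means of 2179 ± 450 (SD, n = 3) and 1397 ± 318 (SD, n = 3), a difference of -0.65 (SE 0.34). The MYOZ2 locus amounted to 0.58, 0.54 and 0.726% of MYOZ1 in LT and to 17.7, 1.81 and 16.4% in ST.

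In order of mean level, LT had MYOZ1, LMOD2, ABRA, ANKRD2, CSRP3, ANKRD1, IFRD1 and the MYOZ2 locus. Neighbours in this order overlapped in their ranges, except MYOZ1 with LMOD2 and IFRD1 with the MYOZ2 locus. In ST the order was MYOZ1, LMOD2, ABRA, CSRP3, ANKRD2, ANKRD1, the MYOZ2 locus and IFRD1, and only MYOZ1 was separate from its neighbour.

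**Figure D2:**
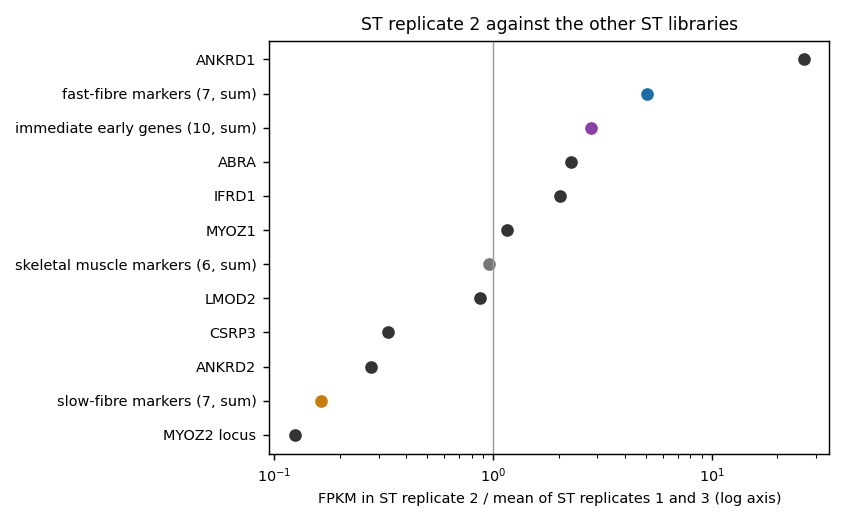
FPKM in ST replicate 2 divided by the mean of ST replicates 1 and 3 (log axis, line at 1), for the 8 genes (black) and 4 summed marker lists (coloured). ANKRD1, ABRA and IFRD1 lie above 1 with the fast-fibre and immediate early lists, and the MYOZ2 locus and ANKRD2 lie below with the slow-fibre list, while LMOD2 and MYOZ1 lie near 1. CSRP3 also lies below 1, through its high value of 719 FPKM in ST replicate 3.

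ST replicate 2 divided the genes. It had the highest ST level of ANKRD1, ABRA and IFRD1, as it had of all 7 fast-fibre markers and of 8 of the 10 immediate early genes. FOSB and IER3 were highest in ST replicate 1. Between the muscles the fast-fibre list went the other way, with a median log2 difference of -2.32 beside 2.70 for ABRA and 1.68 for IFRD1. MYOZ1, the calsarcin of fast fibres, had 1034, 1534 and 1624 FPKM in ST and so was not highest in ST replicate 2. ST replicate 2 had the lowest ST level of the MYOZ2 locus and ANKRD2, at 0.124 and 0.276 of the mean of the other ST libraries, as it had of all 7 slow-fibre markers. The share of all genes that were highest or lowest of ST in ST replicate 2 was not computed. CSRP3 was also lowest there, at 0.332 of that mean, but its 149 FPKM lay close to the 182 of ST replicate 1, and the low ratio rests on the 719 of ST replicate 3. LMOD2 was lowest there too, but within the narrow spread of its ST libraries.

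The genes most like 4 of the members across the 6 libraries were found by Pearson's r on log2 values over 9955 genes. ABRA was closest to RHOC (r = 0.994), HES2 (0.993) and UGCG (0.987), and IFRD1 to PPARD (0.996), UBASH3B (0.994) and ATP6V1H (0.993). LMOD2 was closest to SLC38A2, SMARCA5 and FBXO34 (each 0.998). The MYOZ2 locus was closest to ENSSSCG00000003021 (0.998), HOOK2 (0.997) and HSD17B11 (0.996). The 6 points share 2 muscles and 3 pigs, so these values describe likeness alone.

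Unannotated transcripts on the opposite strand covered 6 of the 8 genes, all but LMOD2 and ANKRD1. Their FPKM was 14.1 to 16.9% of the gene for ANKRD2, 6.01 to 10.2% for the MYOZ2 locus, 6.03 to 10.8% for ABRA, 5.45 to 6.80% for MYOZ1, 3.58 to 6.13% for CSRP3 and 1.69 to 3.58% for IFRD1. For each of the 6 genes the share varied less over the libraries than the gene's own level. It was lower in every ST library than in every LT library for all but CSRP3. For ANKRD2 the gap was narrow, with 15.68% in ST replicate 1 and 15.74% in LT replicate 3. How often such a gap occurred over all genes with an opposite-strand transcript was not computed, so it is not shown to be particular to these genes. For CSRP3, LNC_006036 had FPKM of 0.373, 0.760 and 7.44 in LT and was listed at 0 in ST. The overlapping LNC_006037 was listed at 0 in LT and had 10.7, 6.96 and 39.6 in ST. Their sum was highest where CSRP3 was highest in each muscle, in pig 3. Among 3255 genes with a mean FPKM of at least 10, 65.7% had such a partner, with a median share of 4.72%. The strand setting of the authors' assembly is not given in the sources used here.

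**Figure D3:**
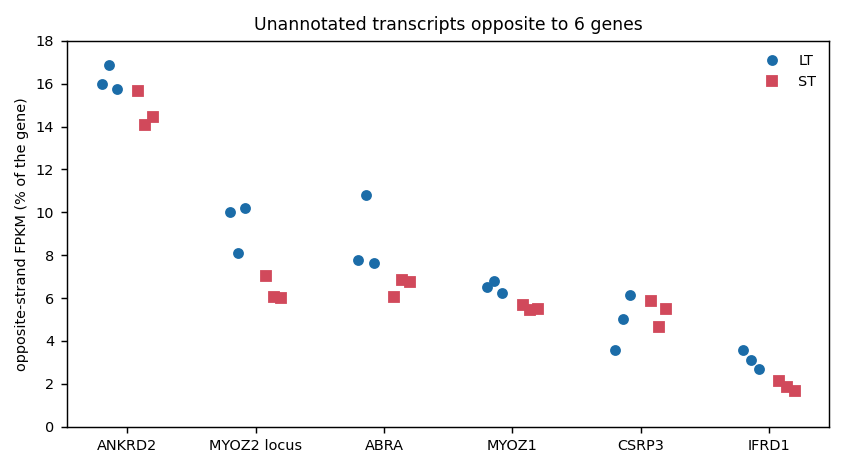
Summed FPKM of unannotated opposite-strand transcripts as a percentage of the gene's own FPKM, with 1 point per library (circles LT, squares ST). The share lies between 14.1 and 16.9% for ANKRD2 and between 1.69 and 3.58% for IFRD1.

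Genes of the same families and pathways were tested in the limma fit over all genes, with an adjusted p under 0.05 and a fold change beyond 1 on the log2 scale as the criteria of a call. Such calls took in 0.715% of all genes, with 0.543% higher and 0.172% lower in ST. These were 76 and 24 genes, and 28 and 22 after quantile normalization. Of 78 genes found from 6 lists of 89, 2 were higher and none lower by limma, and at the unadjusted level (p under 0.05 before adjustment, fold as above) 16 were higher and 9 lower, beside 5.06% and 2.19% of all genes, or 7.25% together. With the pig as a block, 11 were higher and 1 lower, beside 3.72% and 1.33% of all genes, or 5.05% together. Without ST replicate 2, 11 were higher and 11 lower, beside 3.87% and 1.78%, or 5.65% together.

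**Figure D4:**
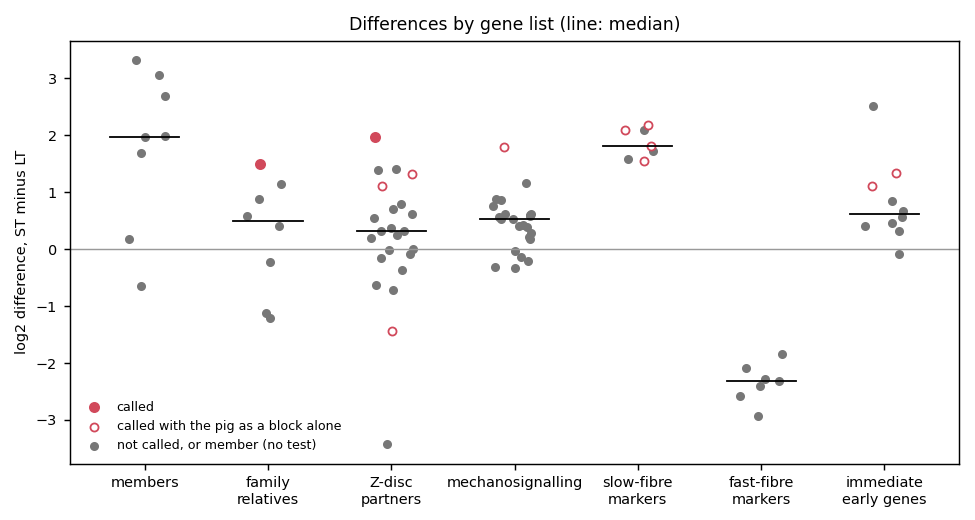
Log2 difference, ST minus LT, of each gene in 7 lists (points), with the median of each list as a line. Filled red points were called by limma, open red points were called with the pig as a block alone, and grey points were not called or are the 8 members, which were not tested. The slow-fibre markers lie above 0 and the fast-fibre markers below.

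Among 8 relatives of the members, CSRP1, a LIM protein of smooth muscle and other tissues, was called. It rose from 2.38, 2.70 and 2.35 FPKM in LT to 6.32, 6.14 and 9.39 in ST, a log2 fold change of 1.49 (SE 0.22, limma adjusted p = 0.0355, with 0.0157 to 0.148 across alternatives). All 3 pigs were higher, and the call was lost without any 1 library other than ST replicate 2. TMOD4 had 591, 675 and 703 in LT and 249, 455 and 198 in ST, with no overlap, but did not pass (log2 fold change -1.21, limma adjusted p = 0.103). The Xin repeat protein XIRP2 had a log2 fold change of 0.88 (limma adjusted p = 0.175), and the tropomodulin TMOD3 of 0.42 (limma adjusted p = 0.181). Neither overlapped between the muscles.

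Among 23 Z-disc partners, ACTN2, the actinin that cross-links thin filaments in all fibres, was called. It rose from 63.9, 57.5 and 85.8 FPKM in LT to 323, 171 and 340 in ST, a log2 fold change of 1.96 (SE 0.31, limma adjusted p = 0.0399, with 0.0049 to 0.174 across alternatives), higher in all 3 pigs. This call too was lost without any 1 library other than ST replicate 2. ACTN3, the actinin of fast fibres, had 810, 684 and 504 in LT and 56.3, 375 and 10.4 in ST, and did not pass (log2 fold change -3.43, limma adjusted p = 0.139). The ratio of ACTN2 to ACTN3 was 0.0789 to 0.170 in LT and 5.74, 0.455 and 32.7 in ST, so that ST replicate 2 lay between the muscles. With the pig as a block, the thin-filament binder MYOT (log2 fold change 1.11, adjusted p = 0.0341) and NRAP (1.32, adjusted p = 0.0461) passed in limma as higher, and the LIM protein PDLIM7 (-1.43, adjusted p = 0.0374) as lower. Without the block their adjusted p-values from limma were 0.0696, 0.103 and 0.0746.

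Of 23 genes of mechanosignalling, none was called by limma without a block, with 1 at the unadjusted level. That gene was FHL1, a LIM protein of the sarcomere, with 979, 786 and 1452 FPKM in LT and 4217, 2632 and 4268 in ST (log2 fold change 1.80, limma adjusted p = 0.0693, and 0.0286 with the pig as a block). The YAP relative WWTR1 had a log2 fold change of 0.86, the kinase LATS2 of 0.61 and the actin gene ACTB of 0.57, each with all ST values above LT. VCL, vinculin, had the lowest log2 fold change, -0.33, and overlapped.

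The 7 slow-fibre markers held no call in limma without a block and 6 at the unadjusted level, among them MYL3 (log2 fold change 2.19) and TNNT1 (2.096). With the pig as a block 4 were called, MYL3, TNNT1, ATP2A2 and TPM3, with adjusted p-values from 0.0277 to 0.0396 from limma, and without ST replicate 2 all 7 were. The 7 fast-fibre markers held no call with or without the block in limma and 6 at the unadjusted level, and all 7 were called lower without ST replicate 2. TNNT3 had the lowest log2 fold change, -2.93.

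Of 10 immediate early genes, none was called without a block in limma and 2 passed at the unadjusted level. With the pig as a block, IER3 and MYC were called as higher (log2 fold change 1.11 and 1.34, limma adjusted p = 0.0335 and 0.0321). Without the block their adjusted p-values from limma were 0.110 and 0.287. IER3 did not overlap between the muscles, but MYC did, with 1.88, 4.35 and 0.911 FPKM in LT and 3.25, 12.1 and 3.43 in ST. ATF3, a stress-induced transcription factor, had 21.1, 14.2 and 9.62 FPKM in LT and 32.5, 414 and 41.3 in ST (log2 fold change 2.52, limma adjusted p = 0.163). FOS had 126, 80.9 and 90.5 in LT and 127, 352 and 120 in ST. For both, ST replicate 2 was the highest of all libraries.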

How the data were processed

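The authors filtered the reads, mapped them to the Sscrofa11.1 assembly and built transcripts with StringTie. They deposited 1 FPKM value for each transcript and library. The number of fragments behind each value is not given in the files, so no counting interval was computed. Values of all transcripts of an annotated protein-coding gene were added up. Genes with a sum above 0.1 in at least 1 library were tested for ST against LT by limma (version 3.58.1, R version 4.3.3). The fit used log2(FPKM + 0.1), a variance trend and Benjamini-Hochberg adjustment. Python 3.11.15, numpy 2.4.6 and pandas 2.3.3 gave the remaining values, and matplotlib 3.10.9 the plots. In simulated data with 200 of 13994 genes changed by 2 on the log2 scale, the fit without a block recovered 167 with 7 other calls. With the replicate block, 135 were recovered with 4 other calls, whereas in the measured data the block gave more calls, 706 beside 100. How far this recovery holds for the measured libraries was not tested.

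The members and the gene lists were chosen with earlier results of these data known. List genes were matched by symbol or, for LDB3, FHL1, FHL2 and TPM3, by position over at least 50% of both spans. Named were all members, and from each list the genes called, further genes by smallest p up to 4, and those with the highest and the lowest log2 fold change. Opposite-strand transcripts had to cover at least 50% of an annotated transcript.

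Both muscles came from the same 3 pigs per the study's methods. Samples were matched to pigs by the number in their titles, and the residuals of LT and ST libraries with the same number correlated at 0.323, 0.305 and 0.329. The mean between different numbers was -0.160. Residuals were centred for each gene within each muscle, which largely fixes that mean from the same-number values, so it is no separate evidence of the matching. The study states that muscles of the same pig avoid differences between animals, but it names no block for its test. The main comparison therefore has no block and leaves the pairing unused, and the block is an alternative. Marker lists for adipocytes, fibroblasts, macrophages, satellite cells, smooth muscle and heart were summed too. The PCR values of the study were not used. The alternatives were other pseudocounts and filters, the block, rescaling to nuclear transcripts, quantile normalization, no variance trend, 1 transcript per gene and each library left out, and, added after seeing the data, a fit with unannotated mRNA genes included.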

Additional observations from a re-analysis of the deposited data

How the results depend on the processing

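The median log2 difference of the members lay between 1.71 and 2.33 when 1 library was left out, and at 1.97 with the pig as a block. ANKRD1 was the only member whose sign changed, to -1.45 without ST replicate 2 and -0.39 without LT replicate 2, in a range of -1.45 to 1.35 with 1 library left out. Against 100 genes called in limma (76 higher, 24 lower), 11 were called with no filter on FPKM, 706 with the replicate block, 372 after rescaling to nuclear transcripts (320 higher, 52 lower), 50 after quantile normalization (28 higher, 22 lower), 26 with no variance trend and 45 from the 1 transcript with the highest mean. With 1 library left out, 11 to 785 were called, the highest without ST replicate 2. Against 1015 at an unadjusted p under 0.05, 504 passed with a pseudocount of 1. Against 2 list genes called, 12 were called with the replicate block and 4 after rescaling. The number was 0 with no filter, after quantile normalization, with no variance trend and from 1 transcript, and 0 to 22 with 1 library left out, the highest without ST replicate 2. CSRP1 and ACTN2 thus lost their calls without any 1 library other than ST replicate 2. Against 25 list genes at an unadjusted p under 0.05, 11 passed with no filter, and 14 to 27 passed with 1 library left out. The sign of TMOD3 turned to -4.34 from 1 transcript, and that of JUNB to 0.025 after rescaling, 0.07 without LT replicate 1 and 0.18 without ST replicate 1, in a range of -0.41 to 0.18 with 1 library left out. Rescaling to nuclear transcripts moved the median of all genes to 0.29. The causes were not tested. The 3 libraries per muscle limit each of these calls.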

Other observations

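The span of LMOD3 in RefSeq, chr13:50541407-50554346, lies almost wholly within the model named FRMD4B, whose overlapping transcripts had 49.0, 37.6 and 70.8 FPKM in the LT libraries against 61.4, 40.8 and 58.9 in ST. The levels of both genes cannot be told apart. In the span of XIRP1, chr13:23867476-23876850, the lncRNA ENSSSCG00000041387 covered 13.6% and had 1.44, 0.422 and 1.17 FPKM in the LT libraries against 4.08, 15.0 and 2.52 in ST. Its highest value was in ST replicate 2, as for ANKRD1, ABRA and IFRD1. The gene CSRNP1, chosen after its values were seen because it lies near XIRP1, had 7.10, 11.7 and 3.80 FPKM in the LT libraries against 10.3, 41.3 and 13.9 in ST.

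The sum of 5 adipocyte markers was 65.2 to 180 FPKM in LT and 47.3 to 148 in ST, 6 fibroblast markers to 632 to 1346 and 665 to 1239, 6 macrophage markers to 41.0 to 55.3 and 38.5 to 86.9, and 4 satellite cell markers to 21.2 to 45.4 and 21.9 to 25.8. The sum of 7 smooth muscle markers, DES among them, was 1366 to 2985 in LT and 2533 to 4019 in ST. Of 5 cardiac markers found, 3 were below 1 FPKM in every library, and the MYH6 model also covers MYH7. The endothelial genes PECAM1 and CDH5 were called as higher in ST by limma (log2 fold change 1.39 and 1.22, adjusted p = 0.0399 and 0.0355), in all 3 pigs.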
